A study of Homo sapiens with 12 samples.

Results

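The short arm of human chromosome 2 holds a run of neighbouring genes whose RNA was mostly lower in the drug-resistant lines of this study than in the parent line. The genes described here are the protein-coding genes of the deposited count table that lie wholly between positions 8852690 and 55112621 of chromosome 2 (hg38), 201 of the 23497 genes in the table. They begin with MBOAT2 and end with RTN4. Of the 201 members, 181 had enough counts to be tested, and the 20 others had 11 to 73 counts each over all 12 libraries, among them ALK and the potassium channel gene KCNK3. The members were chosen by measured values of these same libraries, since the borders follow where levels differed between lines, and which comparison was used is not recorded. Values against sensitive cells, and values of the EB-resistant line against the other resistant lines, are therefore a description: in those comparisons the numbers of members called, here and in each list of genes, follow from how the block was chosen and support nothing. The difference between the DT-resistant and the VC-resistant line is tested, although these libraries may be among those on which the borders were drawn, and all 12 libraries share 1 estimate of the spread in that test.

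The cells were WM1366, a human melanoma line with mutant NRAS. The sensitive parent was kept in DMSO, and 3 daughter lines were kept in a BRAF inhibitor together with a MEK inhibitor to which they had become resistant. These drugs were encorafenib and binimetinib for the EB-resistant line, vemurafenib and cobimetinib for the VC-resistant line, and dabrafenib and trametinib for the DT-resistant line. All cells were lysed 72 h after seeding, and each group has 3 libraries of polyadenylated RNA from 3 independent experiments, numbered 2, 5 and 6. Each drug pair is represented by 1 line. Resistance, the presence of drug and culture history therefore cannot be told apart, and standard errors hold only the variation among experiments on the same line. In bulk RNA, fewer cells carrying a transcript and less of it per cell cannot be told apart either.

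Library totals ran from 40491309 to 54495132 counts. MITF, the master regulator of the melanocyte lineage, stood at 47.1 ± 5.75 (SD) CPM, which are counts relative to the scaled library total, in sensitive libraries and at 53.3 ± 3.03, 66.4 ± 5.70 and 66.3 ± 3.30 CPM in the EB-, VC- and DT-resistant libraries (n = 3 each). The pigment genes PMEL, TYRP1 and DCT were under 1 CPM on average in every group. The other melanocyte markers looked up, SOX10, MLANA, TYR and S100B, had no entry among the deposited genes. The summed level of 7 fibroblast markers was 109 to 148 CPM in sensitive, 525 to 588 in the EB-resistant, 281 to 314 in the VC-resistant and 361 to 468 in the DT-resistant libraries, most of it from THY1. On that list PDGFRB averaged 0.784 CPM in sensitive and 74.5, 2.6 and 2.49 CPM in EB-, VC- and DT-resistant cells, COL1A1 0.325 and 17.9, 0.603 and 3.57 CPM, and LUM 0.916 and 49.8, 14.7 and 145 CPM. DCN and COL1A2 were at or near 0. The part of these genes in the results below was not tested.

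Genes that lie next to each other on a chromosome are usually controlled separately, each from its own promoter and enhancers. In tumour cells a long stretch of neighbours can also shift together, for example where a piece of a chromosome is gained or lost or where a chromatin domain changes state. The measurements here are of RNA alone, and no measure of DNA copy number or chromatin was analysed. The block spans genes of unrelated function, among them SOS1, which loads RAS with GTP, the mismatch repair gene MSH6, the nucleotide synthesis genes RRM2 and CAD, and EPAS1, a hypoxia-inducible transcription factor.

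The promoters of 4 members are shown because these genes had contrasting patterns: EML4, LRPPRC and FBXO11 were lower in the VC- and DT-resistant lines than in the others, and RASGRP3 was higher in all 3 resistant lines. Each runs from 250 bases before to 50 bases after the RefSeq start (GRCh38.p14), 5′ to 3′ on the gene's own strand. Capitals mark a match, on either strand, to any of 4 motifs. These are TGANTCA for AP-1 factors, CCGGAAG for ETS factors, the E-box CACGTG, and TATAAA, the letters of a core promoter element.
EML4: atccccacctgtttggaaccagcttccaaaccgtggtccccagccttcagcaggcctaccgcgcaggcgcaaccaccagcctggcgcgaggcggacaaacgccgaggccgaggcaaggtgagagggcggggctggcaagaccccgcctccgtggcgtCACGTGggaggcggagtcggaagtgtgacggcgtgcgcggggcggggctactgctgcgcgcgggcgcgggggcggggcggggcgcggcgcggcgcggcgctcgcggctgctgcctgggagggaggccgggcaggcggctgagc
LRPPRC: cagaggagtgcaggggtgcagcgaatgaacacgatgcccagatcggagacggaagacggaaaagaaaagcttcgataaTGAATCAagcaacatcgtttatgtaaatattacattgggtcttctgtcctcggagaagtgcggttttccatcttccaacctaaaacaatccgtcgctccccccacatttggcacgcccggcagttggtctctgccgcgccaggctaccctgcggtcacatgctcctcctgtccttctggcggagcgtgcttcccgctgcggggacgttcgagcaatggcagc
FBXO11: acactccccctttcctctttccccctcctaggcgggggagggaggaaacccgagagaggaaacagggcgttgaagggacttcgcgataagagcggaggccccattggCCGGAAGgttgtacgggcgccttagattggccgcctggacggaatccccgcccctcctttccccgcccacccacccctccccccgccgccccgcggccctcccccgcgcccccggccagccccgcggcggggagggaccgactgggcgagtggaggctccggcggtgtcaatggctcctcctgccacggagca
RASGRP3: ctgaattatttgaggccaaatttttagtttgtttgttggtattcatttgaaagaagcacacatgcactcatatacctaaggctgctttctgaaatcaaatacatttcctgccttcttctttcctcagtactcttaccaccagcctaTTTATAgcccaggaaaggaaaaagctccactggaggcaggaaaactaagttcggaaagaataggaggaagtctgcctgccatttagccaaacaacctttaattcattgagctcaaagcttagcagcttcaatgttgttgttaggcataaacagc
The EML4 window lies at chr2:42169103-42169402 on the plus strand and that of RASGRP3 at chr2:33436098-33436397 on the plus strand. The LRPPRC window lies at chr2:43995940-43996239 and that of FBXO11 at chr2:47906449-47906748, both on the minus strand. EML4 has an E-box whose match begins 93 bases before the start, LRPPRC an AP-1 match 172 bases before it and FBXO11 an ETS match 143 bases before it. RASGRP3 has a match to TATAAA on the opposite strand, 104 bases before the start. Of the 181 tested members, 154 have an entry in the RefSeq promoter table. Among these 154, 4.55% held the AP-1 motif, 22.1% the ETS motif, 6.49% the E-box and 3.90% TATAAA, each on either strand. Over all 27305 promoters of the table, which include those of noncoding genes, the shares were 7.76%, 10.7%, 7.43% and 12.0%. Over 619 tested protein-coding genes elsewhere on chromosome 2 they were 2.58%, 15.8%, 9.37% and 5.33%. A match is a string of letters and not a known site of binding.

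In the EB-resistant line nearly the whole block was lower. The median log2 fold change (log2FC) of the 181 tested members against sensitive was -0.99, a level of 50.3% of the sensitive one, and 169 members were below 0. With edgeR's quasi-likelihood test and Benjamini-Hochberg adjustment over 17114 genes, 155 members were called lower and 7 higher at an adjusted p under 0.05, a count that depends on how the block was chosen. Over all genes tested, 27.6% were called lower and 28.5% higher, 56.1% in all. The count of members called higher became 11 without sensitive replicate 2. The quartiles of the members' log2FC were -1.30 and -0.64, and 116 of the 181 lay within 0.5 of their median. The 60 best expressed members had a median of -0.96, and the 61 least expressed a median of -1.06.

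The VC- and DT-resistant lines had lower levels too, but less evenly. In VC-resistant cells the median log2FC was -0.62, or 65.2% of the sensitive level, with 128 members called lower and 19 higher. Over all genes tested, 27.4% were called lower and 27.6% higher in that comparison, 55% in all. In DT-resistant cells the median was -0.60, or 65.9% of the sensitive level, with 127 members called lower and 21 higher, where 29.3% of all genes were called lower and 29.8% higher (59.1% in all). The quartiles of the members were wider apart than in the EB-resistant cells, from -1.27 to -0.18 in the VC-resistant and from -1.21 to -0.14 in the DT-resistant cells. The 60 best and the 61 least expressed members had medians of -0.42 and -0.82 in VC-resistant cells. In DT-resistant cells these medians were -0.48 and -0.84. These 3 comparisons share the sensitive libraries and are not independent of each other.

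The single libraries of each group were close together. Measured as the median over members of log2 CPM minus the sensitive mean, the sensitive libraries lay between -0.01 and 0.02. The EB-resistant libraries lay between -0.99 and -0.98, the VC-resistant between -0.61 and -0.60 and the DT-resistant between -0.63 and -0.60. The EB-resistant libraries were below all others, and the VC- and DT-resistant libraries overlapped. Members took 1.58 ± 0.0240% of library counts in sensitive cells, 0.794 ± 0.00682% in the EB-resistant, 0.986 ± 0.0192% in the VC-resistant and 0.994 ± 0.0194% in the DT-resistant cells.

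**Figure D1:**
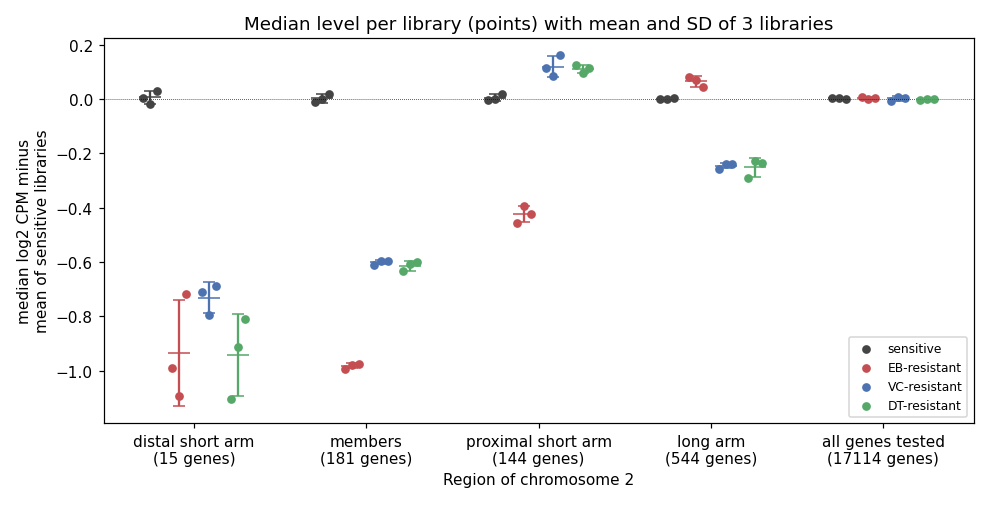
Median over the tested genes of each region of log2 CPM minus the mean of the sensitive libraries (y axis, log2 units), for 12 libraries as points, with the mean and SD of the 3 libraries of each group. The members sit near 0 in sensitive, near -0.98 in EB-resistant and near -0.60 in VC- and DT-resistant libraries, while the medians of all 17114 genes lie at 0.

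The rest of chromosome 2 has 789 protein-coding genes in the table, 703 of them tested. Its median log2FC was -0.05 in the EB-resistant, -0.19 in the VC-resistant and -0.16 in the DT-resistant cells, against medians within 0.01 of 0 over all genes tested. On the long arm (544 tested genes) the medians were 0.05, -0.26 and -0.25 in the same order. The 144 tested genes of the short arm between the block and the centromere had medians of -0.41, 0.12 and 0.11, so that they were below 0 in the EB-resistant line and above it in the others. The 15 tested genes between the block and the tip of the short arm had medians of -1.10, -0.89 and -1.09, below those of the members. The borders of the block were set from the data, and these medians are a description of where the low stretch lies.

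**Figure D2:**
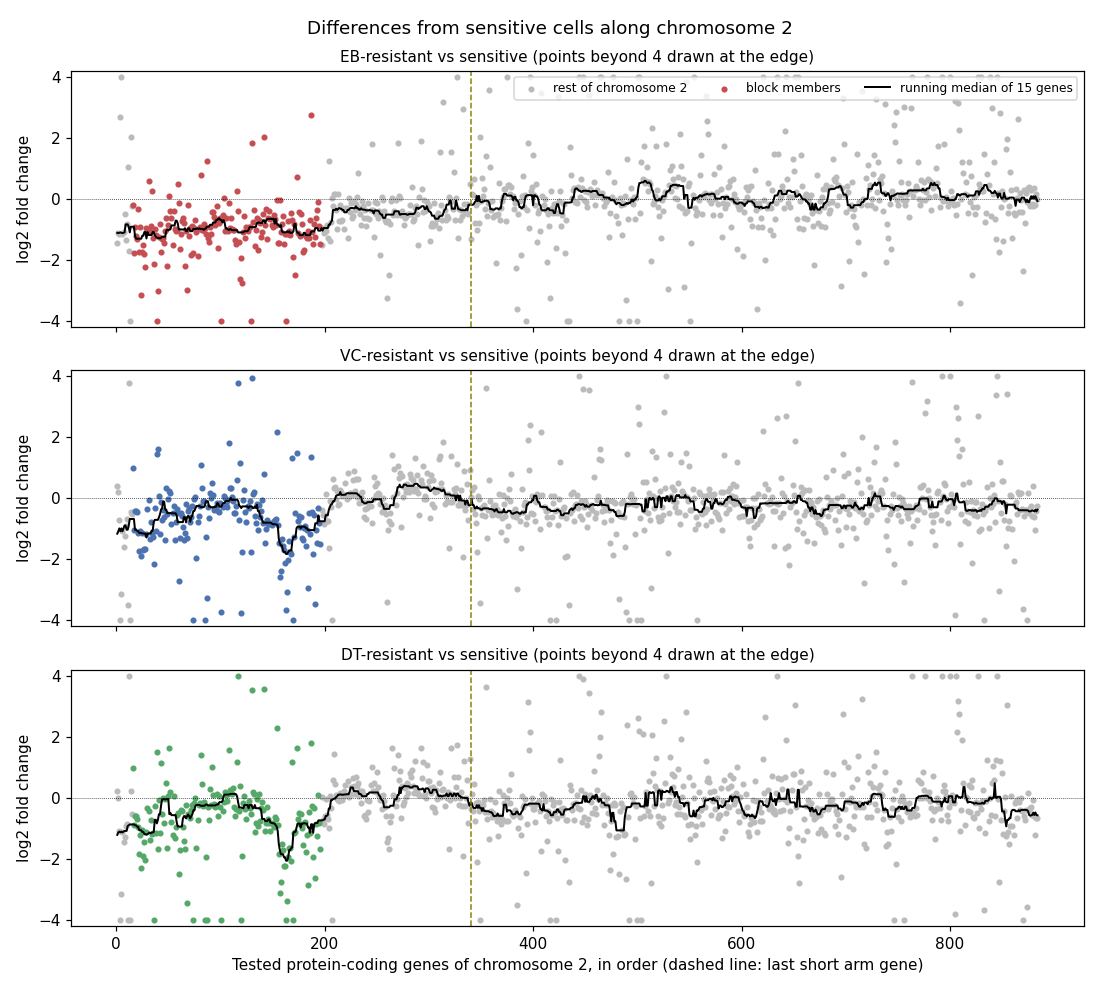
Log2 fold change against sensitive (y axis) of the tested protein-coding genes of chromosome 2 in order along the chromosome (x axis), with members coloured and a running median of 15 genes as a black line. In EB-resistant cells the line stays near -1 through the block, while in VC- and DT-resistant cells it comes near 0 in the middle of the block and falls lowest among the genes around EML4 and LRPPRC.

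At the start of the block the change was not abrupt. Just outside, KIDINS220, a scaffold protein of neurotrophin signalling, had a log2FC of -0.24, -0.52 and -0.52 in EB-, VC- and DT-resistant cells. ID2, an inhibitor of basic helix-loop-helix factors, averaged 1.15 CPM in sensitive, 4.71 in the EB-resistant, 0.840 in the VC-resistant and 1.33 in the DT-resistant cells. RNF144A averaged 1.4 CPM in sensitive cells and was at 0 counts in all EB- and DT-resistant libraries. Just inside, MBOAT2, a lysophospholipid acyltransferase, had a log2FC of -0.19, 1.01 and 0.97, ASAP2 of -1.78, -1.03 and -0.90, and ITGB1BP1 of -0.91, -0.42 and -0.60. The member that opens the block was thus higher, not lower, in 2 of the 3 lines.

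At its end the low levels continued past the border. The last members were SPTBN1, a spectrin, with a log2FC of -0.11, -0.33 and 0.10, EML6 with -0.90, -0.82 and -0.83, and RTN4, an endoplasmic reticulum shaping protein, with -1.46, -1.51 and -1.68. Beyond them, CLHC1 had -1.52, -0.37 and 0.02, the ribosomal protein gene RPS27A -0.96, -0.55 and -0.74, and the mitochondrial initiation factor MTIF2 -1.10, -0.85 and -0.85. RPS27A and CALM2 have near copies elsewhere in the genome, and reads that match several copies make their counts less certain.

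Within the block, windows of 5 Mb differed little in EB-resistant cells and much in the other lines. The window medians in EB-resistant cells ran from -1.28 to -0.74. In VC-resistant cells the 12 tested members from KLF11 to TRIB2 had a median of -1.22, the 48 from EFR3B to CLIP4 a median of -0.26 and the 16 from YPEL5 to FAM98A a median of -0.17. The 14 tested members from SLC8A1 to CAMKMT had the lowest median, -1.79. In DT-resistant cells the same 4 windows had medians of -1.17, -0.23, -0.20 and -2.01. In EB-resistant cells the SLC8A1 to CAMKMT window was at -1.08, near the median of the block.

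**Figure D3:**
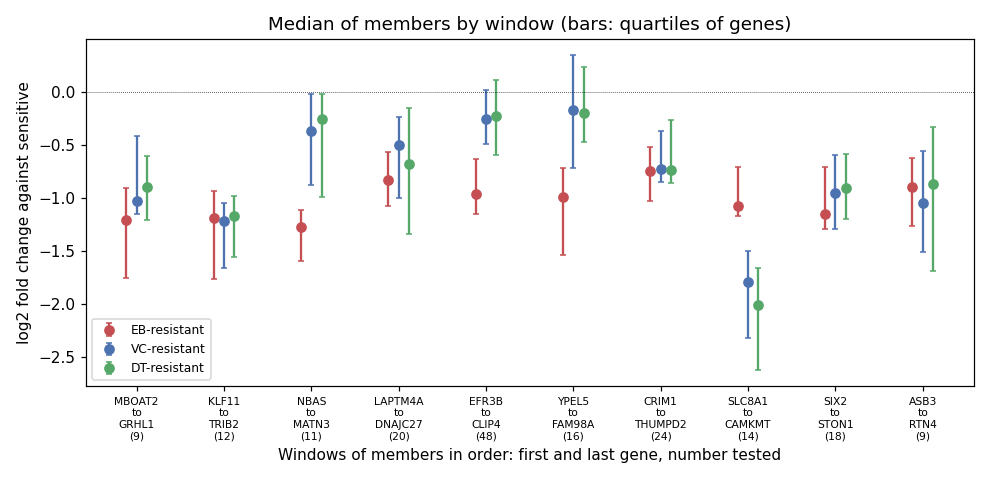
Median log2 fold change against sensitive (y axis) of the members in 10 consecutive windows (x axis, named by first and last tested gene with the number tested in brackets), with bars between the quartiles of the genes, which are not replicates. EB-resistant medians stay between -1.28 and -0.74, while the VC- and DT-resistant medians rise towards 0 in the middle windows and reach -1.79 and -2.01 in the SLC8A1 to CAMKMT window.

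The SLC8A1 to CAMKMT stretch was the lowest of these windows in the VC- and DT-resistant lines, and 13 of its 14 tested genes were called lower in each of them. Over all genes tested, 27.4% and 29.3% were called lower in these lines. EML4, a microtubule-binding protein known as a fusion partner of ALK, was at 88.6, 89.0 and 93.1 CPM in sensitive replicates 2, 5 and 6, the order used throughout. It was at 42.4, 41.9 and 42.5 CPM in the EB-resistant, 16.9, 16.9 and 18.1 in the VC-resistant and 12.3, 14.8 and 13.2 in the DT-resistant libraries. None of the 4 groups overlapped. Its log2FC against sensitive was -1.09 ± 0.08 (SE), -2.38 ± 0.08 and -2.75 ± 0.08.

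LRPPRC, which stabilises mitochondrial mRNAs, was at 489.7, 492 and 508 CPM in sensitive, 231, 241 and 242 in the EB-resistant, 191, 184 and 187 in the VC-resistant and 151, 167 and 160 in the DT-resistant libraries. Again no group overlapped another. Its log2FC was -1.06 ± 0.06, -1.41 ± 0.06 and -1.64 ± 0.06. COX7A2L, a factor in respiratory supercomplex assembly, had -0.81, -1.33 and -1.52, THADA -1.16, -2.11 and -2.23, MTA3, a subunit of the NuRD chromatin complex, -0.58, -1.55 and -1.71, and PREPL, a serine peptidase-like protein, -0.46, -1.82 and -2.06.

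CAMKMT, a calmodulin lysine methyltransferase that starts next to PREPL on the other strand, went the other way. It was at 6.07, 5.89 and 6.26 CPM in sensitive, 4.0, 3.54 and 3.68 in the EB-resistant, 15.6, 16.1 and 13.8 in the VC-resistant and 14.1, 13.2 and 13.7 in the DT-resistant libraries. The VC- and DT-resistant libraries were above all sensitive ones, and the EB-resistant libraries below them. Its log2FC was -0.70 ± 0.11, 1.32 ± 0.11 and 1.17 ± 0.11, the reverse of PREPL in the VC- and DT-resistant lines.

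FBXO11, a substrate receptor of a ubiquitin ligase, lies further on, beside MSH6. It was at 54.3, 49.8 and 47.3 CPM in sensitive, 25.6, 24.4 and 22.4 in the EB-resistant, 7.79, 5.28 and 6.49 in the VC-resistant and 8.72, 5.05 and 6.89 in the DT-resistant libraries. The VC- and DT-resistant libraries overlapped each other and lay below all EB-resistant ones (log2FC against sensitive -1.06 ± 0.16, -2.96 ± 0.17 and -2.87 ± 0.17). Its neighbour MSH6 had -1.29, -1.04 and -1.21. The annotated spans of FBXO11 and MSH6 overlap on opposite strands. In all, 61 tested members overlap another member on the opposite strand. The strand setting of the counting is not given in the sources used here, so reads from shared stretches may have been split or left out.

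**Figure D4:**
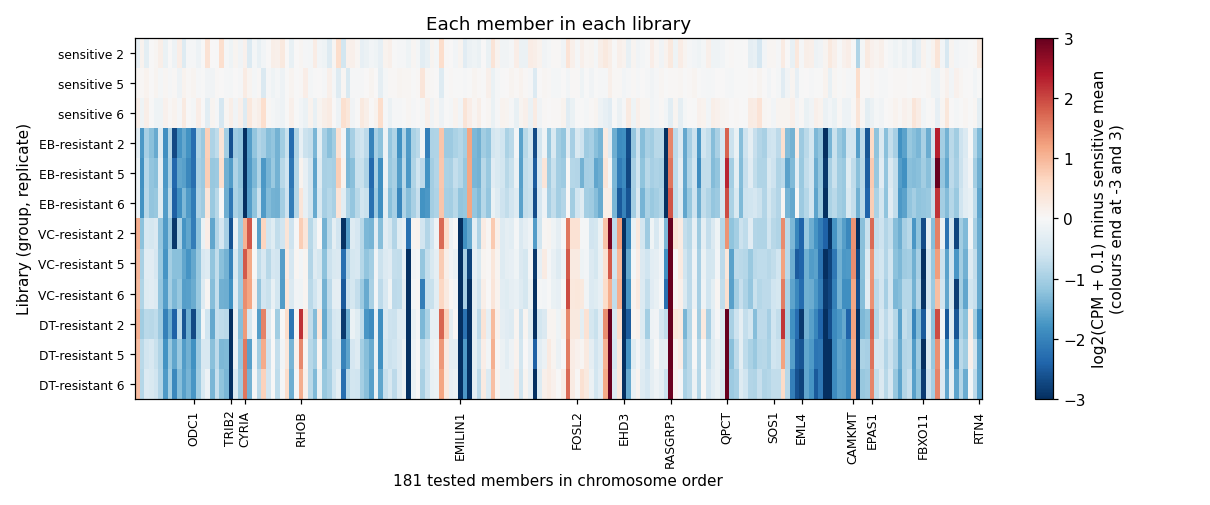
The 181 tested members in chromosome order (x axis, some named) in each of the 12 libraries (y axis), coloured by log2(CPM + 0.1) minus the mean of the sensitive libraries. EB-resistant libraries are blue along nearly the whole row, and VC- and DT-resistant libraries are pale in the middle and darkest around EML4, with single red columns such as RASGRP3 in all 3 lines.

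Members of RAS, ERK and other kinase signalling followed the block with few exceptions. Over all genes tested, 27.6%, 27.4% and 29.3% were called lower in EB-, VC- and DT-resistant cells, and 28.5%, 27.6% and 29.8% higher. These shares stand beside the counts of this and the following lists. Of 17 tested, 16 were called lower and 1 higher in EB-resistant (median log2FC -1.01), 14 lower and 2 higher in VC-resistant (-0.80) and 13 lower and 2 higher in DT-resistant cells (-0.80). SOS1, the exchange factor that couples receptors to RAS, was at 67.2, 65.9 and 61.7 CPM in sensitive libraries. It was at 42.9, 42.2 and 38.8 CPM in the EB-resistant, 36.4, 39.1 and 42.9 in the VC-resistant and 42.9, 43.1 and 38.9 in the DT-resistant libraries. All resistant libraries were below all sensitive ones, and the resistant groups overlapped (log2FC -0.65 ± 0.08, -0.72 ± 0.08 and -0.64 ± 0.08). Among the most abundant of the list, CALM2, which encodes calmodulin, had -1.19, -0.90 and -0.80, PPM1G, a serine/threonine phosphatase, -1.62, -0.42 and -0.60, and PPP1CB, a catalytic subunit of protein phosphatase 1, -1.03, -0.08 and 0.33.

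RASGRP3, another exchange factor for RAS and RAP proteins that responds to diacylglycerol, was the exception among the 17 genes in EB-resistant cells. It was at 0.522, 0.417 and 0.305 CPM in sensitive, 1.29, 1.45 and 1.76 in the EB-resistant, 7.14, 6.47 and 5.88 in the VC-resistant and 6.40, 4.17 and 3.80 in the DT-resistant libraries. Every resistant library was above every sensitive one, at low levels (log2FC 1.85 ± 0.27, 3.96 ± 0.26 and 3.52 ± 0.26). Its neighbour LTBP1, which binds latent TGF-beta in the matrix, was at 102, 93.7 and 90.1 CPM in sensitive and at 4.04, 5.15 and 4.35 in EB-resistant libraries. In VC-resistant libraries it was at 37.4, 26.8 and 20.1 and in DT-resistant libraries at 56.7, 79.1 and 61.1. No group overlapped another, and the EB-resistant line was the lowest (log2FC -4.40 ± 0.22, -1.76 ± 0.19 and -0.54 ± 0.19).

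PRKCE, a protein kinase C that responds to diacylglycerol, was at 146, 121 and 98.9 CPM in sensitive, 20.2, 21.5 and 22.7 in the EB-resistant, 75.7, 90.3 and 94.9 in the VC-resistant and 51.0, 60.5 and 57.3 in the DT-resistant libraries. The 4 groups did not overlap (log2FC -2.51 ± 0.13, -0.49 ± 0.12 and -1.12 ± 0.12). TRIB2, a pseudokinase, averaged 12.0 ± 1.42 CPM in sensitive and 2.72 ± 0.910, 2.7 ± 0.734 and 0.485 ± 0.103 CPM in EB-, VC- and DT-resistant cells. FOSL2, an AP-1 subunit, had a log2FC of -0.63 ± 0.09, 0.35 ± 0.09 and 0.16 ± 0.09. ALK, a receptor tyrosine kinase known from neuroblastoma, had 16 counts over all libraries and was not tested.

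Of 18 tested transcription factors and chromatin regulators, 13 were called lower and 1 higher in the EB-resistant, 11 and 3 in the VC-resistant and 12 and 2 in the DT-resistant cells, with medians of -0.58, -0.44 and -0.46. EPAS1 was at 33.6, 32.2 and 27.3 CPM in sensitive, 46.6, 53.1 and 51.8 in the EB-resistant, 99.8, 78.8 and 80.1 in the VC-resistant and 106, 95.8 and 85.0 in the DT-resistant libraries. It was above every sensitive library in all 3 lines (log2FC 0.70 ± 0.11, 1.47 ± 0.11 and 1.62 ± 0.11). ASXL2, a Polycomb-associated protein, had -0.96, -0.79 and -0.68, GTF3C2, a subunit of the RNA polymerase III factor TFIIIC, -0.59, -0.37 and -0.22, and the DNA methyltransferase DNMT3A -0.20, -0.41 and -0.55.

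Among 15 cell cycle, replication and repair genes, 14 were called lower and 1 higher in EB-resistant (median -1.10), 9 and 2 in VC-resistant (-0.46) and 9 and 3 in DT-resistant cells (-0.38). ODC1, the rate-limiting enzyme of polyamine synthesis, was at 591, 634 and 580.4 CPM in sensitive, 123, 125 and 139.8 in the EB-resistant, 144, 208 and 216 in the VC-resistant and 91.7, 170.3 and 180.5 in the DT-resistant libraries. All resistant libraries were below all sensitive ones (log2FC -2.22 ± 0.24, -1.67 ± 0.23 and -2.03 ± 0.24). RRM2, the regulatory subunit of ribonucleotide reductase, had -1.52, -1.69 and -1.92. CAD, which starts pyrimidine synthesis, was at 210.1 ± 25.6 CPM in sensitive, 94.6 ± 2.36 in the EB-resistant, 214 ± 4.17 in the VC-resistant and 176 ± 19.1 in the DT-resistant cells.

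All 15 RNA processing and translation genes were called lower in EB-resistant cells (median -1.0), 14 in VC-resistant (-0.47) and 12 in DT-resistant cells (-0.59), and none was called higher in any of the 3. DDX1, an RNA helicase, had a log2FC of -1.18, -1.06 and -1.17. PUM2, a repressor that binds mRNA, had -0.87, -0.03 and 0.04, and EIF2AK2, the double-stranded RNA sensor PKR, -0.70, -0.21 and 0.11. All 9 genes put on the mitochondrial list, CAMKMT among them, were called lower in EB-resistant cells (median -0.81). In VC-resistant cells 3 were called lower and 1 higher (-0.05), and in DT-resistant cells 4 lower and 1 higher (-0.14). The 1 called higher in both was CAMKMT (log2FC 1.32 and 1.17), described above as a calmodulin lysine methyltransferase. The 33.3% called lower in VC-resistant cells was near the 27.4% over all genes. HADHA and HADHB, the subunits of the trifunctional protein of fatty acid oxidation, had -0.94 and -0.70 in the EB-resistant, -0.03 and 0.03 in the VC-resistant and -0.18 and 0.00 in the DT-resistant cells.

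Of 9 ubiquitin, proteasome and folding genes, 9 were called lower in EB-resistant (median -1.0), 7 in VC-resistant (-0.48) and 5 in DT-resistant cells (-0.33). BIRC6, a large ubiquitin-conjugating inhibitor of apoptosis, had -0.92, -0.32 and -0.09, the proteasome activator PSME4 -0.62, -1.05 and -0.87, and ERLEC1, a lectin of the endoplasmic reticulum, -0.82, -0.56 and -0.33. Of 19 membrane traffic and cytoskeleton genes, 17 were called lower and 0 higher in EB-resistant (median -0.98), 15 and 2 in VC-resistant (-0.33) and 15 and 3 in DT-resistant cells (-0.29). MCFD2, a cofactor of the cargo receptor LMAN1, had -1.73, -1.37 and -1.56.

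Within that list EHD3 had the lowest log2FC in each line, and RHOB the highest in the EB- and DT-resistant lines. RHOB, a short-lived endosomal GTPase, was at 47.7, 46.3 and 42.8 CPM in sensitive, 38.4, 48.7 and 58.6 in the EB-resistant, 76.3, 43.0 and 41.9 in the VC-resistant and 204, 124 and 97.2 in the DT-resistant libraries. It overlapped the sensitive group in 2 lines and was above it in every DT-resistant library (log2FC 0.09 ± 0.31, 0.23 ± 0.31 and 1.64 ± 0.32). EHD3, which acts in endosomal recycling, averaged 25.4 ± 1.82, 6.68 ± 0.355, 1.92 ± 0.618 and 1.45 ± 0.0645 CPM in sensitive, EB-, VC- and DT-resistant cells, with a log2FC of -1.93, -3.75 and -4.13.

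Of 9 surface, channel and matrix genes tested, 8, 8 and 7 were called lower in the EB-, VC- and DT-resistant lines and none higher, with medians of -1.05, -1.36 and -0.74. EMILIN1, an elastic fibre glycoprotein, was at 97.7, 91.1 and 87.6 CPM in sensitive and 50.5, 51.1 and 40.2 in EB-resistant libraries. It was at 1.23, 0.506 and 0.298 CPM in VC-resistant and 0.192, 0.264 and 0.345 in DT-resistant libraries. In EB-resistant cells it followed the block (log2FC -0.96 ± 0.20), and in the other lines it was nearly absent (-7.17 ± 0.30 and -8.43 ± 0.33; the former became -7.85 without VC-resistant replicate 2). SDC1, the proteoglycan syndecan-1, had -2.20, -0.52 and -1.65, and CRIM1, a membrane protein that binds BMPs, -0.37, 0.21 and 0.13. SLC30A6, a zinc transporter, had -0.93, -0.78 and -0.69.

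Among 10 lipid, sugar and small molecule metabolism genes, 5 were called lower and 1 higher in EB-resistant (median -1.07), 6 and 3 in VC-resistant (-0.73) and 6 and 3 in DT-resistant cells (-0.59). The 30% called higher in VC- and in DT-resistant cells was near the 27.6% and 29.8% over all genes. QPCT, which forms N-terminal pyroglutamate, was at 4.88, 4.78 and 5.11 CPM in sensitive, 17.1, 24.4 and 19.3 in the EB-resistant, 12.6, 6.23 and 6.90 in the VC-resistant and 70.1, 50.7 and 54.6 in the DT-resistant libraries. It was above all sensitive libraries in each line (log2FC 2.04 ± 0.25, 0.79 ± 0.25 and 3.57 ± 0.25). RBKS, a ribokinase, had -0.14, 1.80 and 1.56. SELENOI, a phospholipid synthesis enzyme, had -1.87, -0.77 and -0.74, LPIN1, a phosphatidate phosphatase, -1.30, -1.28 and -1.14, and XDH, xanthine dehydrogenase, -2.74, -1.77 and -1.92.

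CYRIA, an inhibitor of RAC1 signalling to the actin cytoskeleton, was switched between the lines. It was at 3.33, 3.61 and 2.28 CPM in sensitive, 6.35, 11 and 8.06 in VC-resistant and 7.45, 9.17 and 9.26 in DT-resistant libraries. The EB-resistant libraries held 1 count in all, in replicate 6. Sensitive cells were 447 times as high as EB-resistant cells (ratio of summed counts over library sizes, 95% counting interval 79.9 to 17700), and the VC- and DT-resistant groups were above the sensitive libraries (log2FC 1.46 ± 0.22 and 1.48 ± 0.22). TP53I3, a quinone reductase induced by p53, had a log2FC of -0.14 in the EB-resistant, -2.71 in the VC-resistant and -2.49 in the DT-resistant cells.

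**Figure D5:**
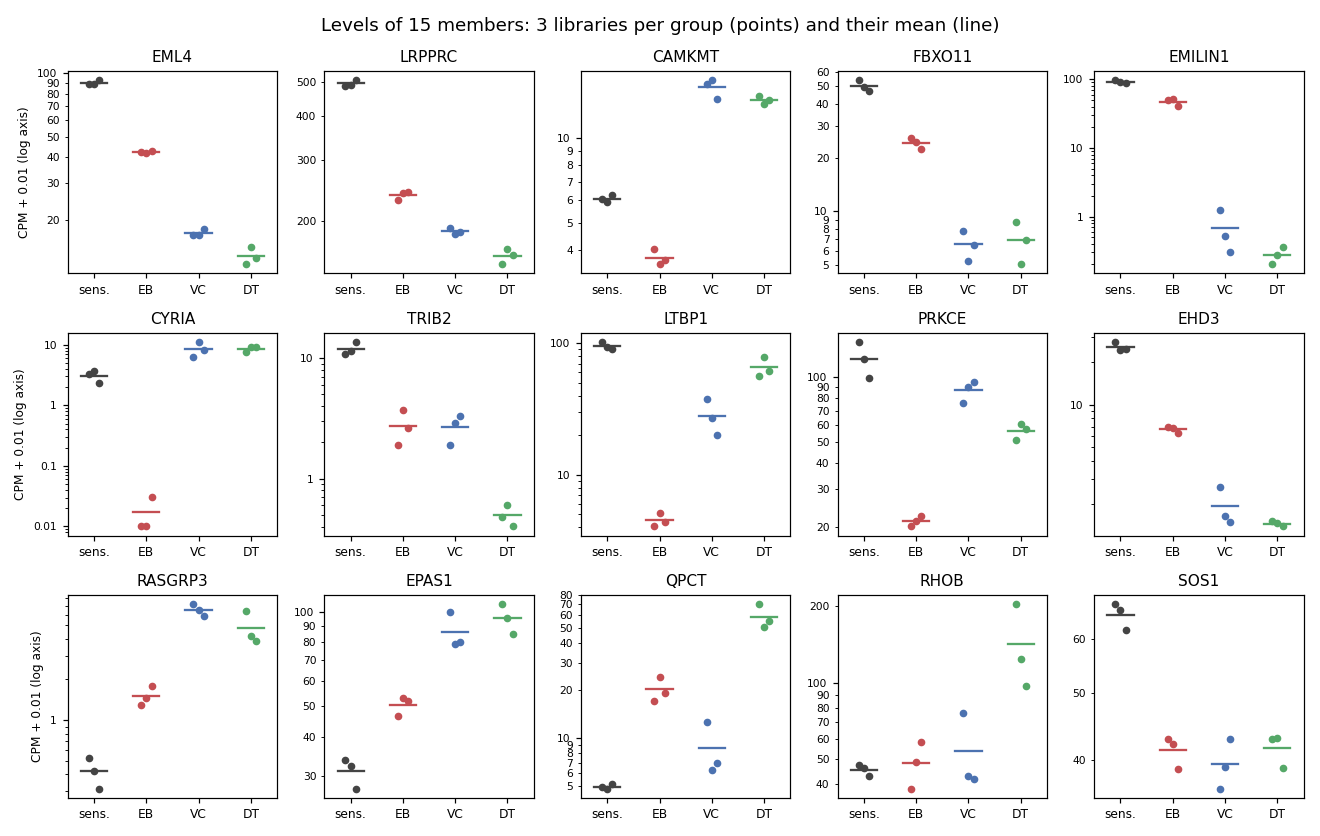
CPM + 0.01 on a log axis (y axis) of 15 members in the sensitive (sens.), EB-, VC- and DT-resistant libraries (x axis), with 3 libraries as points and their mean as a line. EML4, LRPPRC, FBXO11 and EMILIN1 are lowest in VC- and DT-resistant libraries, LTBP1, PRKCE and CYRIA in EB-resistant libraries, and RASGRP3, EPAS1 and QPCT are above sensitive in all 3 lines.

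Per length, the most abundant tested members in sensitive cells were ODC1 at 216 CPM per kb, YWHAQ, a 14-3-3 protein, at 202 CPM per kb and RTN4 at 118 CPM per kb. In EB-resistant cells LAPTM4A, a lysosomal membrane protein, led ODC1 at 70.1 against 46.3 CPM per kb. LAPTM4A was also the higher of the pair in VC-resistant cells, at 137 against 67.8 CPM per kb, and in DT-resistant cells, at 150.3 against 52.8 CPM per kb. Lengths are those deposited with the table.

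The block also holds 100 genes of other biotypes, mainly long noncoding RNAs and pseudogenes, 34 of them tested. Their median log2FC against sensitive was -0.76, -0.44 and -0.66 in EB-, VC- and DT-resistant cells. In EB-resistant cells 18 were called lower and 2 higher, in VC-resistant cells 13 and 3, and in DT-resistant cells 14 and 3. The shares called lower were 52.9%, 38.2% and 41.2%, against 27.6%, 27.4% and 29.3% over all genes. Those called higher were 5.88%, 8.82% and 8.82%, against 28.5%, 27.6% and 29.8%.

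The EB-resistant line was set against the others as a description. Members had a median log2FC of 0.37 in VC-resistant over EB-resistant cells, with 96 called higher and 38 lower, where 28.8% of all genes were called higher and 29.6% lower (58.4% in all). In DT-resistant over EB-resistant cells the median was 0.43, with 101 called higher and 40 lower, where 28.8% of all genes were called higher and 28.4% lower (57.2% in all). The rest of chromosome 2 had medians of -0.18 and -0.17. The SLC8A1 to CAMKMT window stood against the block, at -0.77 and -0.96.

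The DT-resistant line was then compared with the VC-resistant line, to see whether lines made with different drug pairs differed in the block. Their members differed little: the median log2FC was 0.01, and 155 of 181 lay within 0.5 of it. With edgeR's quasi-likelihood test, 18 members rose and 15 fell in DT-resistant relative to VC-resistant cells, 9.94% and 8.29% of those tested. This fit leaves out the pairing of these libraries by number that the data show. Counts from a fit with a replicate block are given in the closing section. Over all genes tested 8.71% rose and 7.08% fell (15.8% in all), close to the share of members. Without VC-resistant replicate 5, 11 rose and 12 fell, and without VC-resistant replicate 6, 10 rose and 13 fell. PPM1G, with no call (-0.18, adjusted p = 0.113), was called without sensitive replicate 2 (adjusted p = 0.0382).

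QPCT rose the most among the well expressed members, from 8.58 ± 3.51 to 58.5 ± 10.2 CPM (log2FC 2.78 ± 0.24, adjusted p = 1.39e-05, edgeR). LTBP1 rose as well (log2FC 1.23 ± 0.19, adjusted p = 0.00103). RHOB rose from 53.7 ± 19.5 to 142 ± 55.3 CPM (log2FC 1.40 ± 0.32, adjusted p = 0.0156), a call lost without VC-resistant replicate 5 or 6 (adjusted p = 0.0671 and 0.0728). Smaller rises were found for YPEL5 (log2FC 0.57 ± 0.14, adjusted p = 0.0113), SPTBN1 (0.43 ± 0.10, adjusted p = 0.00907), PPP1CB (0.41 ± 0.06, adjusted p = 0.000366), EIF2AK2 (0.32 ± 0.08, adjusted p = 0.0136) and ERLEC1 (0.23 ± 0.07, adjusted p = 0.0282). The call for YPEL5 was lost without VC-resistant replicate 5 or 6 or DT-resistant replicate 2, that for SPTBN1 without VC-resistant replicate 6, that for EIF2AK2 without DT-resistant replicate 2, and that for ERLEC1 without replicate 5 or 6 of either line (adjusted p = 0.0519 to 0.117). SPTBN1 and ERLEC1 also missed the threshold in a fit of these 2 lines alone (adjusted p = 0.0502 and 0.0807).

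TRIB2 fell from 2.7 ± 0.734 CPM in VC-resistant to 0.485 ± 0.103 CPM in DT-resistant cells (log2FC -2.48 ± 0.29, adjusted p = 3.69e-05, edgeR). SDC1 fell from 111 ± 7.28 to 50.8 ± 13.8 CPM (log2FC -1.13 ± 0.17, adjusted p = 0.000849). PRKCE (log2FC -0.63 ± 0.12, adjusted p = 0.00296), ADCY3, an adenylyl cyclase (-0.55 ± 0.12, adjusted p = 0.00563), and KLHL29 (-0.75 ± 0.13, adjusted p = 0.000919) fell too. In the low window, EML4 fell by a further 0.37 ± 0.08 (adjusted p = 0.00547) and LRPPRC by 0.23 ± 0.06 (adjusted p = 0.0152), the latter lost without VC-resistant replicate 6 or DT-resistant replicate 2 (adjusted p = 0.0527 and 0.059). In the fit of these 2 lines alone EML4 and LRPPRC missed the threshold as well (adjusted p = 0.0562 and 0.0583). CAD was just under the threshold (log2FC -0.28 ± 0.09, adjusted p = 0.0473) and lost its call without each of 8 of the 9 resistant libraries in turn (adjusted p = 0.0546 to 0.172). It also lost it with DESeq2, with no filter on low counts, with median-of-ratios scaling and in the fit of these 2 lines alone (adjusted p = 0.0507, 0.0507, 0.052 and 0.0653). EMILIN1 had no call (log2FC -1.26 ± 0.48, adjusted p = 0.105; -0.57 without VC-resistant replicate 2), but was called without VC-resistant replicate 6 (-1.67, adjusted p = 0.0135) and with DESeq2 (-1.32, adjusted p = 0.0422), and RASGRP3 had none either (-0.44 ± 0.20, adjusted p = 0.175), with a call only without DT-resistant replicate 2 among the alternatives run (-0.70, adjusted p = 0.0235).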

How the data were processed

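Polyadenylated RNA was sequenced from 12 libraries of 4 groups of 3. The authors deposited a table of raw read counts per gene, with gene positions, lengths and biotypes. The submitters' processing notes name bcl2fastq 2.20.0, STAR 2.7.10b (hg38), featureCounts 2.0.1 and DESeq2 1.38.3. Neither the strand setting nor the annotation release was found in the labels. The deposited normalised values were not used. Library totals were 40491309 to 54495132 counts, and no libraries were identical.

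Low genes were removed with filterByExpr over the 4 groups and TMM factors scaled the libraries, and edgeR 4.0.16 (with limma 3.58.1 in R 4.3.3) was used to fit a robust quasi-likelihood model with group means as its terms to the 12 libraries together. All 6 pairs of groups were tested, with Benjamini-Hochberg adjustment over 17114 genes and a threshold of 0.05. CPM use TMM-scaled totals. Library medians use log2 CPM with a prior count of 2. Standard errors were back-calculated from the F statistic. The fit was tested on counts simulated for EB-resistant and sensitive libraries, with the same spread for every gene and low genes left out. Of 50 genes raised 1.5-fold, 24 were called in the right direction. At 2-fold 44 of 50 were called, and at 4-fold 50 of 50. At 0.5-fold 44 of 50 were called, and 9 unchanged genes were called as well. The other comparisons were not simulated. A group with 1 to 3 counts is given as a ratio with its 95% exact counting interval, and a group at 0 as a bound against 3 counts per library. Both cover counting error only.

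The members and the 9 role lists were chosen with earlier results of these data known. Genes named are, per role list, the 3 with the highest mean CPM, the 4 members with the highest and the 4 with the lowest log2 fold change in a comparison, if they reached 5 CPM in each library of the group that was higher, the 3 tested genes on each side of each border, and ALK, SOS1, RASGRP3, PRKCE, EPAS1, ID2 and FOSL2. Neighbours in the SLC8A1 to CAMKMT window, MSH6, DNMT3A, YWHAQ and LAPTM4A were named after their values were seen. VC- and DT-resistant libraries that share a number deviated together from their group means (r of 0.151 to 0.337 in 3 pairs, each above 0.1), so these 2 lines are paired by number in the data, not by the labels. No other pair of groups met that limit in every pair, and the model has no replicate block. Alternatives covered DESeq2 1.42.0, other scaling, other filters, fits of 2 groups, the replicate block, other borders, all biotypes and leaving out each library. Figures used matplotlib 3.10.9 in Python 3.11.15.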

Additional observations from a re-analysis of the deposited data

Results flagged for a closer look

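Several members lay above sensitive in every library of 1 resistant line and below it in every library of another. The share of all genes that did so is not given here. The pattern is therefore not read as a trait of the block. Differences from the EB-resistant line are a description and are given without p-values, because the members may have been chosen on the comparisons involved. Each value is the fitted log2 fold change between the 2 resistant lines. For CYRIA, which was above sensitive in the VC- and DT-resistant lines and below it in the EB-resistant line, it was 9.79 (VC- over EB-resistant) and 9.81 (DT- over EB-resistant), with 1 count in the EB-resistant libraries, and both depend on the prior count (11.63 and 11.65 without EB-resistant replicate 6). CGREF1, a growth regulator with EF-hands, went the other way, at 4.53 (EB- over VC-resistant) and 9.63 (EB- over DT-resistant, where 0 counts were found and the bound is at least 32.0-fold).

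In the same sense as CYRIA, the VC-resistant line exceeded the EB-resistant line for VSNL1 by 4.64, CAPN14 by 3.77, CAMKMT by 2.02, TMEM214 by 1.34, BABAM2 by 1.31, ATRAID by 1.07, FOSL2 by 0.99, LAPTM4A by 0.97 and DPY30 by 0.82. VSNL1 was at low counts in the EB-resistant libraries, which makes its value uncertain. The DT-resistant line exceeded the EB-resistant line for CAPN14 by 2.99, KCNS3 by 2.90, CAMKMT by 1.87, TMEM214 by 1.45, UCN by 1.43, PPP1CB by 1.35, GPN1 by 1.25, BABAM2 by 1.22, ATRAID by 1.20, LAPTM4A by 1.10 and SUPT7L by 0.72.

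Between the VC- and DT-resistant lines, VSNL1, a neuronal calcium sensor, lay on opposite sides of sensitive, higher in VC-resistant cells by 3.29 (adjusted p = 0.00021, edgeR). VSNL1 was at low counts. In log2 CPM with a prior count of 2, minus the sensitive mean, it was at -0.61, -2.16 and -1.80 in the DT-resistant libraries. Sensitive replicate 2 was at -0.47 on that scale. PPP1CB and SUPT7L lay above sensitive in every DT-resistant and below it in every VC-resistant library. Against sensitive the log2FC in VC- and DT-resistant cells was small, -0.08 and 0.33 for PPP1CB and -0.18 and 0.10 for SUPT7L. The 2 lines differed by 0.41 (adjusted p = 0.000366, edgeR) and 0.29 (adjusted p = 0.0268, edgeR). VSNL1, PPP1CB and SUPT7L were flagged here for this separation, so their adjusted p-values add no support to it.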

How the results depend on the processing

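Every median of the members kept its direction in the alternatives run, apart from that for DT-resistant over VC-resistant cells, which lay between -0.02 and 0.02. In that comparison the balance of 18 members higher and 15 lower became 17 and 17 without sensitive replicate 2, 16 and 16 without sensitive replicate 6, 11 and 12 without VC-resistant replicate 5 and 10 and 13 without VC-resistant replicate 6. With DESeq2 the members' median was -0.95 in EB-resistant and -0.67 in DT-resistant against sensitive, 0.36 in VC- over EB-resistant and 0.38 in DT- over EB-resistant cells, and the rest of chromosome 2 was at -0.01 in EB-resistant against sensitive and -0.22 in VC- over EB-resistant cells. With no filter on low counts, the members were at -0.96 (EB-resistant), -0.64 (DT-resistant) and 0.40 (DT- over EB-resistant), and the rest of the chromosome at -0.02 (EB-resistant), -0.18 (VC-resistant) and -0.19 (VC- over EB-resistant). Requiring 1 CPM in 3 libraries gave -0.95 in EB-resistant cells, and median-of-ratios scaling 0.36 in VC- over EB-resistant cells. Fits of the 2 groups alone gave 0.46 in DT- over EB-resistant cells, and 9 members lower in DT- than in VC-resistant cells in place of 15. With all biotypes the medians were -0.96 in EB-resistant cells, 0.42 in VC- over EB-, 0.41 in DT- over EB- and -0.02 in DT- over VC-resistant cells. With members at least 2 Mb inside the borders they were -0.57 (VC-resistant), -0.55 (DT-resistant), 0.42 (VC- over EB-) and 0.50 (DT- over EB-resistant). With the distal short arm genes added, chosen after seeing the data, they were -0.64 (VC-resistant), -0.68 (DT-resistant) and 0.39 (DT- over EB-resistant). The cause of these shifts was not tested.

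Leaving out each library in turn moved the members' median between -1.02 and -0.96 in EB-resistant, -0.65 and -0.59 in VC-resistant and -0.69 and -0.60 in DT-resistant against sensitive cells. The ranges were 0.36 to 0.45 in VC- over EB-, 0.41 to 0.47 in DT- over EB- and -0.02 to 0.01 in DT- over VC-resistant cells. The rest of chromosome 2 ranged from -0.06 to -0.03, -0.19 to -0.17, -0.17 to -0.15, -0.19 to -0.16, -0.17 to -0.14 and 0.00 to 0.02 in the same 6 comparisons. Members called higher ranged from 5 to 11 in EB-resistant against sensitive cells and from 10 to 20 in DT- over VC-resistant cells, and members called lower in the latter from 11 to 17. With the replicate block in the model, which the pairing of VC- with DT-resistant libraries allows, 21 members rose and 19 fell in DT- over VC-resistant cells. The share of all genes called with the replicate block is not given here, so these counts do not show more change in the members. The block changed no count by over 1.5 times, and among the named genes it added calls between these lines for MCFD2 (log2FC -0.18, adjusted p = 0.033), PSME4 (0.18, adjusted p = 0.0469) and, outside the block of genes, RPS27A (-0.19, adjusted p = 0.0374). For single named genes, no call was reversed in any alternative. Calls at low counts, such as CYRIA in EB-resistant cells, rest on few reads.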
